A study of Homo sapiens with 20 samples.

Results

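The 36 genes described here encode the nuclear pore, the nuclear lamina with its membrane partners, and a pair of nuclear export receptors, in HUDEP-2 cells that were taken through erythroid differentiation. They were chosen by name and not by their values, although earlier results of these data were known. All 36 were found among the 46425 gene symbols of the deposited tables. All 36 also passed the filter on low counts that left 16784 genes for testing. They comprise 8 genes of the Y complex, which builds the outer rings of the pore, 5 of the inner ring, 3 membrane-spanning nucleoporins, 4 of the central channel, 6 of the cytoplasmic face, 3 of the nuclear basket, 3 lamins, 2 proteins of the inner nuclear membrane and 2 exportins.

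Nuclear pore complexes are large channels through the nuclear envelope, built from ring-shaped scaffolds that are anchored in the membrane and filled with flexible proteins rich in phenylalanine and glycine. Proteins and RNAs cross them with the help of importins and exportins, whose loading is set by the small GTPase Ran. Under the inner nuclear membrane lies the lamina, a mesh of A-type and B-type lamins that holds chromatin and gives the nucleus its stiffness. During terminal erythroid differentiation the nucleus condenses, its envelope opens in places, and in humans it is finally expelled.

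HUDEP-2 is an erythroid progenitor line of cord blood origin that was immortalized with papillomavirus oncogenes under doxycycline control, and the cells sequenced were labelled wild type. RNA was taken on day 0 and after 1 to 8 and 12 days of differentiation, with 2 libraries on each of the 10 days. All cells were grown with EPO. The authors expanded the cells in serum-free medium with SCF, doxycycline and dexamethasone. The differentiation medium held human serum, transferrin, insulin and heparin, and no dexamethasone is listed for it. Day 0 was before differentiation, so comparisons against day 0 also carry this change of medium. SCF was left out from day 6 and doxycycline from day 8, so day and medium cannot be told apart, and day 12 was the only day after both had been withdrawn. The 2 libraries of a day are called library A (from the tables of separate days) and library B (from the table of all days), and pairs of values below are given in that order. The authors give 2 biological replicates for their comparison of days 0 and 8. The labels do not say whether the libraries came from separate cultures, so the p-values may measure technical spread only. The tables hold 3 sets of day 0 columns with different values for the 2 day 0 samples, so which of them are these samples is not certain, and the fold changes against day 0 rest on the 2 sets taken here.

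The libraries held between 52131713 and 70358198 counts. Library A of days 7 and 8 stood apart, with 18.5% and 17.5% of its counts in ribosomal RNA genes against 1.03% to 4.08% in the other libraries. Library A of days 7 and 8 came from a deposited table of its own, apart from those of day 0 and of day 12. Within library A, comparisons among days 0, 8 and 12 therefore cross tables, so table and day cannot be told apart there. Library B came from the same table on all days. The part of the table in the results was not tested. Globin genes took 28.2% and 33.7% of the counts on day 12, against 9.85% and 8.49% on day 8, and TPM (a level per transcript length) sums to the same total in each library, so that less is left for the other genes. On the other scale used here, counts scaled by TMM (trimmed mean of M values), the scaling factors were 0.544 and 0.464 on day 12 and 1.17 in both libraries of day 0. On day 12 against day 0 the median log2 difference of all genes tested was -0.29 on the TMM scale and -1.82 in TPM. Erythroid markers (10 genes) rose from 27855 to 30053 summed TPM on day 0 to 443905 to 484627 on day 12. Of other cell types, 4 of 4 lymphoid markers were at 0 counts on days 0, 4, 8 and 12, and 3 mast or basophil markers fell from 537 to 1018 summed TPM on day 0 to at most 0.662 on day 12, and their part in the results below was not tested. In bulk RNA, fewer cells of a type and less RNA per cell cannot be told apart.

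Levels of the pore, lamina and export genes had a median in TPM near that of day 0 for 6 days and a lower one on days 7, 8 and 12, and on day 12 XPO7 was the only gene whose TPM lay above day 0. As a percentage of its own day 0 mean in TPM, the median gene stood at 92.1% on day 1, 104% on day 2, 93.3% on day 6, 64.8% on day 7, 57.3% on day 8 and 8.71% on day 12. On the TMM scale the same median was 85% on day 8 and 34.4% on day 12. On day 12, 34 of the 36 were under 50% of their day 0 TPM, 28 under 20% and 19 under 10%. How many of all genes fell under these limits was not counted. The median log2 difference in TPM on day 12 against day 0 was -3.51 for the 36 and -1.82 for all genes tested. The lowest level on day 12 was that of NDC1, 0.298 TPM, and the highest that of XPO7, 671 TPM. From day 0 to day 8 LMNA had the highest level of the 36 on every day, 479 TPM as the mean of day 0.

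**Figure D1:**
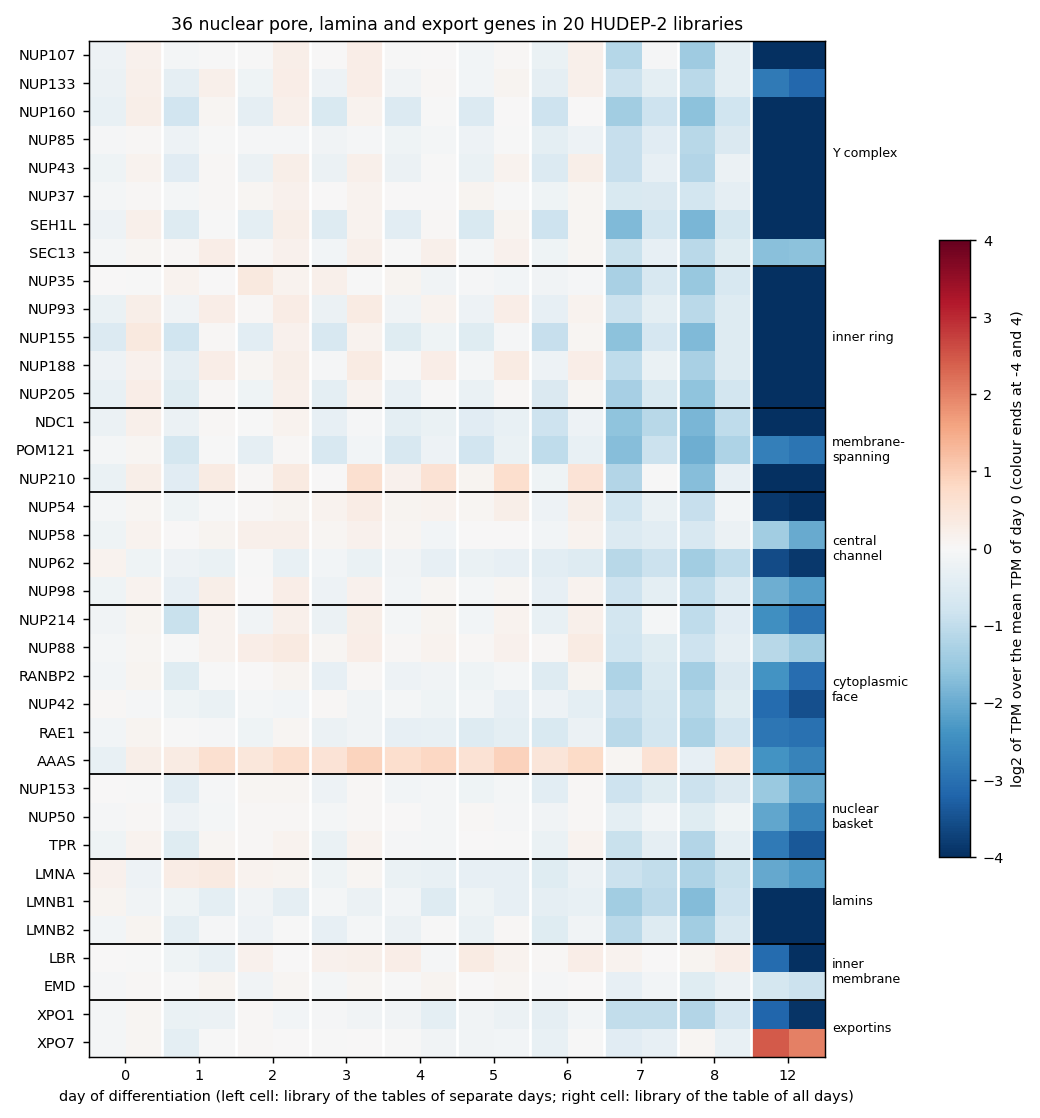
The 36 genes (grouped by role, top to bottom) in all 20 libraries, with days from left to right and both libraries of a day side by side. Colour gives log2 of TPM over the gene's mean TPM on day 0 (blue lower, red higher, ends at -4 and 4). Days 0 to 6 are mostly pale and days 7 and 8 mostly light blue, and on day 12 35 genes are blue, from light in EMD to the end of the scale in LMNB1, while XPO7 is red.

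Across the time course, 29 of the 36 genes differed between any days (edgeR's quasi-likelihood test over all day coefficients, adjusted p under 0.05 over all genes), where 66% of all genes tested did. The 7 that did not pass were SEC13, POM121, NUP58, NUP98, NUP214, RANBP2 and NUP153. On day 4 against day 0, 1 gene was called higher and 0 lower, beside 2.93% and 2.35% of all genes. On day 8 against day 0, 3 were called higher (AAAS, LBR and XPO7) and 6 lower (NDC1, POM121, NUP62, RAE1, LMNA and LMNB1), beside 17.7% and 19.4% of all genes. On day 12 against day 8, 6 were called higher and 24 lower, beside 23.8% and 33.4%. On day 12 against day 0, 5 were called higher (SEC13, NUP58, NUP88, EMD and XPO7) and 28 lower, beside 29.7% and 38.5%, and NUP98, NUP153 and LMNA were not called. The median log2 fold change of the 36 was 0.08, -0.23, -1.20 and -1.54 in these comparisons, against -0.01, 0, -0.20 and -0.29 for all genes. These comparisons share the libraries of days 0, 8 and 12, so their counts are not independent of each other.

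The split into higher and lower depended on the scale. With limma on log2(TPM + 1), 0 of the 36 were called higher and 25 lower on day 8 against day 0. Of all 11953 genes in that test, 972 were called higher and 5915 lower. On day 12, 1 of the 36 was called higher and 35 lower against either earlier day. Of all genes, 772 were then higher and 8440 lower against day 8, and 969 higher and 9444 lower against day 0. In TPM, 35 of the 36 lay below day 0 on day 12 in both libraries without overlap, as did 74.5% of all genes, and XPO7 lay above, as did 13.7%. Relative to the median of all genes in TPM, 6 of the 36 fell less or rose (EMD, NUP153, NUP58, NUP88, SEC13 and XPO7). On day 8 the number of calls changed when libraries were left out. This leaves the day concerned with a single library, and the part of that in the counts was not tested. Calls over all genes are not set beside the counts with libraries left out, so these are not a trait of the 36. Without library A of day 0 or of day 8, 1 gene in each direction was called, without library B of day 0 it was 1 higher and 3 lower, and without library A of days 7 and 8 together 1 higher and 1 lower. Without library B of day 8, 2 were higher and 8 lower. With a block for library A or B, 11 genes were lower, beside 4310 of all 16784 genes. Library A gave the lower TPM in 35 of the 36 genes on day 8 and in 25 to 34 on days 0 to 7, and in 2 on day 12, and the part of this in the calls was not tested. The same count over all genes was not made, so these counts are not a trait of the 36.

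**Figure D2:**
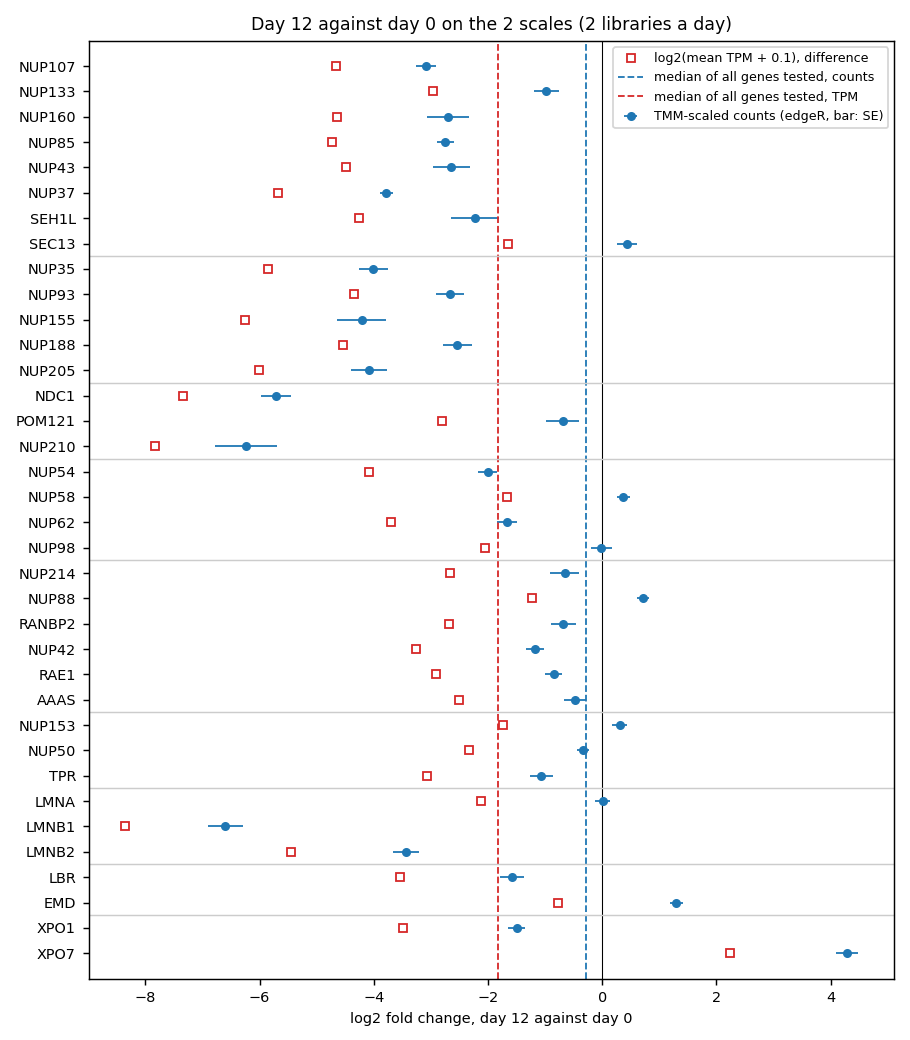
Log2 fold change of day 12 against day 0 for the 36 genes. Filled circles with SE bars are TMM-scaled counts, open squares the difference of log2(mean TPM + 0.1), and dashed lines the medians of all genes on each scale, -0.29 and -1.82. LMNB1, NUP210 and NDC1 lie farthest left, and XPO7 is to the right of 0 on both scales.

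Of the 13 scaffold genes of the pore, 12 were called lower on the TMM scale on day 12 against day 0, beside 38.5% of all genes. In TPM, both day 12 libraries of all 13 lay below day 0, as did those of 74.5% of all genes. Of the 8 Y complex genes, 7 were called lower on day 12 against day 0 and SEC13 higher, and of the 5 inner ring genes all 5 were called lower. None of the 13 was called on day 4 or day 8 against day 0, where edgeR gave adjusted p-values of 0.47 to 1 and 0.15 to 0.88. Of all genes, 2.93% were called higher and 2.35% lower on day 4, and 17.7% and 19.4% on day 8. NUP107, a core subunit of the Y complex, had 47.7 and 61.4 TPM on day 0, 20.5 and 41.2 on day 8, and 2.26 and 1.86 on day 12. Both day 12 libraries lay below every earlier library of this gene, and its log2 fold change on day 12 against day 0 was -3.09 (SE 0.18, adjusted p = 7e-09). NUP37, a peripheral subunit of the same complex, went from 58.9 and 64.2 TPM on day 0 to 1.33 and 0.871 on day 12, 13.7-fold lower on the TMM scale (log2 fold change -3.78, SE 0.12, adjusted p = 1.5e-10). NUP133, at the far end of the Y, fell less, from 45.9 and 62.5 to 7.56 and 6.20 TPM, with a log2 fold change of -0.98 (SE 0.22, adjusted p = 0.0013).

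SEC13, which also serves in the COPII coat of secretory vesicles, had 128 and 141 TPM on day 0 and 42.4 and 42.9 on day 12, or 31.7% of day 0. Its TMM-scaled level was 70.7 and 74.0 CPM (counts scaled to the library total) on day 0 and 83.5 and 111 on day 12 (log2 fold change 0.43, SE 0.18, adjusted p = 0.045), so it was lower in TPM and higher on the TMM scale. Relative to NUP107 of the same complex, the ratio of TPM was 2.68 and 2.29 on day 0, 3.10 and 2.34 on day 8, and 18.8 and 23.0 on day 12. SEH1L and NUP43, also called lower, had log2 fold changes of -2.23 and -2.65 with all transcripts. With curated RefSeq transcripts only these were -0.73 (adjusted p = 0.078) and -0.70 (adjusted p = 0.25).

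The inner ring, which lines the membrane pore, declined in all its members. Its 5 genes stood at 1.11% (NUP155) to 4.68% (NUP93) of their day 0 TPM on day 12. NUP155 had 33.6 and 65.6 TPM on day 0, 14.4 and 34.5 on day 8, and 0.591 and 0.514 on day 12. The day 0 and day 8 libraries of this gene overlapped, while those of day 12 lay far below both, and the log2 fold change on day 12 against day 0 was -4.21 (SE 0.43, adjusted p = 1.1e-06). NUP205 and NUP35 followed closely, at -4.09 (SE 0.31) and -4.01 (SE 0.26), and NUP188 and NUP93 at -2.54 (SE 0.26) and -2.67 (SE 0.24).

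Of the nucleoporins that span the membrane, NUP210 and NDC1 were among the genes that fell farthest and POM121 was not. NUP210, a glycoprotein whose bulk lies in the lumen of the envelope, had 77.4 and 108 TPM on day 0, 104 and 138 on day 4, 28.5 and 74.1 on day 8, and 0.442 and 0.178 on day 12. These last values correspond to 144 and 67 counts in the library. Its log2 fold change on day 12 against day 0 was -6.24 (SE 0.55, adjusted p = 2.6e-07), or 75.5-fold lower. NDC1, which anchors the inner ring in the membrane, went from 55.5 and 73.9 TPM on day 0 to 18.3 and 32.3 on day 8 and 0.367 and 0.229 on day 12. It was lower already on day 8, with a log2 fold change of -0.78 (SE 0.20, adjusted p = 0.0091), although without library A of days 7 and 8 this was -0.51 (adjusted p = 0.11). On day 12 it was 52.5-fold lower than on day 0. POM121, an early component of new pores, had 56.6 and 62.9 TPM on day 0, 15.6 and 25.3 on day 8, and 8.98 and 7.86 on day 12. Its log2 fold change was -0.96 (SE 0.29, adjusted p = 0.018) on day 8 and -0.69 (SE 0.28, adjusted p = 0.044) on day 12 against day 0. The latter turned to 0.18 (adjusted p = 0.86) with curated transcripts only, and POM121 shares near-identical sequence with POM121C, so the division of reads between them is uncertain.

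Promoter windows (250 bases before to 50 after the start, from RefSeq on GRCh38.p14) were at hand for 34 of the 36 genes, 46 windows in all, some of them overlapping. They were read for letters of motifs that stand in many promoters of cell cycle, housekeeping and erythroid genes, on both strands. The CHR element (TTTGAA) was in windows of 9 of the 34 genes, that is in 23.9% of the 46 windows, against 10.5% of windows of all genes tested and 15.2% of all 35116 windows. The ETS motif CCGGAAGT was in 17.4% of the 46, against 7.18% and 4.14%. CCAAT was in 39.1% against 34.8% and 34.6%, and GATA letters (AGATAA or TGATAA) in 8.70% against 9.94% and 16.3%. E2F letters (TTTCCCGC, TTTGGCGC, TTTCGCGC or TTTGCCGC) were in 4.35% against 4.97% and 3.31%, and the NRF1 motif in 8.70% against 9.70% and 5.78%. These shares describe letters in a window and not sites in use. The windows of the 3 genes that fell farthest and of EMD, which had the highest fold change among genes with a window, are shown 5′ to 3′ on the strand of the gene, with letters of these motifs in capitals. They lie at chr5:126776886-126777185 (LMNB1, plus strand), chr3:13420273-13420572 (NUP210, minus strand), chr1:53838247-53838546 (NDC1, minus strand) and chrX:154379045-154379344 (EMD, plus strand). The LMNB1 window shown holds a CCAAT box read on the opposite strand, while its second window, not shown, holds GATA letters. NDC1 holds a CHR element that starts 31 bases before the transcription start, EMD a pair of CCAAT boxes, and NUP210 none of the motifs.
LMNB1: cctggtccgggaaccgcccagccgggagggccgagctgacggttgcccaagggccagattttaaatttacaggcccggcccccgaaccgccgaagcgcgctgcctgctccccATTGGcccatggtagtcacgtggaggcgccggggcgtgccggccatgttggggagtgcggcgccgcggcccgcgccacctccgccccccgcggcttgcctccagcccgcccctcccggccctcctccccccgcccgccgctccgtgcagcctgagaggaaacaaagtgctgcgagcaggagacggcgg
NUP210: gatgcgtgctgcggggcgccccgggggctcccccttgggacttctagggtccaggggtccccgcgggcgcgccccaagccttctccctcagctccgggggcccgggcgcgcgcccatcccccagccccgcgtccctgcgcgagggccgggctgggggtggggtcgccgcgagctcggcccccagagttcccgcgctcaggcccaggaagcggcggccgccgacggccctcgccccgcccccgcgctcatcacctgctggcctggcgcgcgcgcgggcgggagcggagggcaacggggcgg
NDC1: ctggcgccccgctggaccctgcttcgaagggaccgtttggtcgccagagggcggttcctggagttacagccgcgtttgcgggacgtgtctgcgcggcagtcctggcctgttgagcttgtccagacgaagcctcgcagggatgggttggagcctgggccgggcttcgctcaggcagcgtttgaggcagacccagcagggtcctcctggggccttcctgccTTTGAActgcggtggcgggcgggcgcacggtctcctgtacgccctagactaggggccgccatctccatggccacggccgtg
EMD: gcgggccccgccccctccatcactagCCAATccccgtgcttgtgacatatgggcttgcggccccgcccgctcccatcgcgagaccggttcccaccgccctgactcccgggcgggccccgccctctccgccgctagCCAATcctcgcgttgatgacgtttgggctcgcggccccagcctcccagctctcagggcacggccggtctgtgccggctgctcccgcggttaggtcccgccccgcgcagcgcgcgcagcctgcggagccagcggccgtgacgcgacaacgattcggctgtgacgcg

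The central channel fell unevenly. NUP62, which lines the channel with phenylalanine-glycine repeats, had 213 and 169 TPM on day 0, 73.2 and 94.3 on day 8, and 16.0 and 13.1 on day 12. The days did not overlap, and its log2 fold change was -0.61 (SE 0.17, adjusted p = 0.014) on day 8 and -1.67 (SE 0.18, adjusted p = 1.5e-06) on day 12 against day 0. NUP54, its partner in the channel, was at 84.3 and 92.7 TPM on day 0, 46.9 and 81.2 on day 8, and 6.14 and 4.15 on day 12, with a log2 fold change of -2.01 (SE 0.17, adjusted p = 2.1e-07) on day 12 against day 0. NUP58, also of this subcomplex, kept 31.3% of its day 0 TPM on day 12, where its log2 fold change was 0.37 (SE 0.12, adjusted p = 0.013) on the TMM scale and -1.64 in limma on log2(TPM + 1). NUP98, whose gene also encodes the Y complex subunit NUP96, had 68.5 and 85.1 TPM on day 0 and 19.9 and 16.8 on day 12, with a log2 fold change of -0.02 (SE 0.18, adjusted p = 0.93) on the TMM scale.

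The cytoplasmic face held AAAS, the only gene of the 36 that was called on day 4. AAAS encodes aladin, a WD-repeat protein that NDC1 holds at the pore and that is mutated in triple A syndrome. It had 52.6 and 75.8 TPM on day 0, 80.5 and 101 on day 1, 102 and 114 on day 4, 51.2 and 87.5 on day 8, and 12.2 and 10.1 on day 12. Both libraries of each day from 1 to 6 lay above both of day 0. The log2 fold change was 0.88 (SE 0.20, adjusted p = 0.021) on day 4 and 0.68 (SE 0.20, adjusted p = 0.016) on day 8 against day 0. The day 4 call was lost without library A of day 0 and without either library of day 4, and in limma on log2(TPM + 1), where the log2 difference was 0.76 (adjusted p = 0.098). On day 12 AAAS was called lower than on day 0 on the TMM scale, at -0.48 (SE 0.20, adjusted p = 0.045).

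The other 5 genes of this face differed in how far they fell. NUP88 and NUP214, which bind each other, had 54.9 and 61.3 TPM and 28.8 and 34.5 TPM on day 0, and 27.1 and 22.2 TPM and 5.74 and 4.08 TPM on day 12. The ratio of NUP88 to NUP214 in TPM went from 1.91 and 1.78 on day 0 to 4.73 and 5.45 on day 12. On day 12 against day 0 NUP88 was higher on the TMM scale, with a log2 fold change of 0.72 (SE 0.11, adjusted p = 4.8e-05), and lower in limma on log2(TPM + 1), at -1.21. NUP42 and RAE1, which take part in mRNA export, were lower on the TMM scale, at -1.18 (SE 0.16) and -0.85 (SE 0.15), as were RANBP2, a SUMO ligase that binds Ran, at -0.68 (SE 0.21), and NUP214 at -0.66 (SE 0.26). With curated transcripts only, RAE1 and NUP214 lost the call, and that of NUP214 held in 8 of the 16 alternatives. RANBP2 shares sequence with the RGPD gene family, so its reads may be divided among copies.

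In the nuclear basket, which faces the nucleoplasm, NUP153 stood apart from TPR and NUP50. NUP153, which ties the basket to the ring and to the lamina, had 155 and 153 TPM on day 0, 85.4 and 103 on day 8, and 55.3 and 37.1 on day 12. Its TMM-scaled level was 369 and 341 CPM on day 0 and 461 and 415 on day 12 (log2 fold change 0.30, SE 0.13, adjusted p = 0.056). TPR, the filament protein of the basket, fell from 73.6 and 90.5 TPM to 11.5 and 7.76, with a log2 fold change of -1.07 (SE 0.20, adjusted p = 0.0003). NUP50, a mobile cofactor of import, had 88.6 and 94.6 TPM on day 0 and 21.8 and 14.3 on day 12, with a log2 fold change of -0.33 (SE 0.11, adjusted p = 0.013), close to the median of all genes. NUP153 set against NUP205 of the inner ring had a ratio in TPM of 2.21 and 1.48 on day 0 and 36.5 and 37.9 on day 12.

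Among the lamins, both B-type genes were under 4 TPM on day 12 while LMNA stayed above 100 TPM. LMNB1 had 227 and 192 TPM on day 0, 165 and 169 on day 6, 80.4 and 102 on day 7, 63.1 and 117 on day 8, and 0.727 and 0.355 on day 12, the last being 95 and 63 counts. Both libraries of day 7 and of day 8 lay below all libraries of days 0 to 6, and those of day 12 lay far under all others. The log2 fold change was -0.72 (SE 0.23, adjusted p = 0.024) on day 8 against day 0, and -0.42 (adjusted p = 0.25) without library A of days 7 and 8. On day 12 against day 0 it was -6.60 (SE 0.30, adjusted p = 7.2e-10), or 96.9-fold lower, the largest decrease of the 36 genes. LMNB2 followed, from 127 and 148 TPM on day 0 to 52.6 and 87.5 on day 8 and 2.94 and 3.14 on day 12, with a log2 fold change of -3.43 (SE 0.22, adjusted p = 1.6e-08) on day 12 against day 0.

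LMNA, which encodes lamins A and C, had 545 and 413 TPM on day 0, 204 and 259 on day 8, and 117 and 103 on day 12. In TPM it fell to 22.9% of day 0, while its TMM-scaled level was 553 and 483 CPM on day 0, 353 and 352 on day 8, and 497 and 548 on day 12. The log2 fold change on the TMM scale was -0.56 (SE 0.13, adjusted p = 0.0054) on day 8 against day 0, 0.57 (SE 0.13, adjusted p = 0.0023) on day 12 against day 8, and 0.01 (SE 0.13, adjusted p = 0.95) on day 12 against day 0. With curated transcripts only, the day 8 value was 0.01 (adjusted p = 1). That setting leaves out the model transcript XR_921781, which took 2.17% and 59.3% of the LMNA counts on day 0 and 1.69% and 4.23% on day 8. Its part in the change of the value was not tested. Within a library the lamins can be set side by side in TPM. LMNA made up 60.6% and 54.9% of the summed lamin TPM on day 0, 63.8% and 55.9% on day 8, and 97.0% and 96.7% on day 12. LMNB1 made up 25.3% and 25.4% on day 0 and 0.603% and 0.334% on day 12, and the ratio of LMNA to LMNB1 went from 2.39 and 2.16 on day 0 to 161 and 289 on day 12. This change in lamin makeup does not depend on how the libraries were scaled to each other.

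The makeup of LMNA by transcript could not be followed, because the estimates differed between libraries of a day. The non-coding model transcript XR_921781 took 34.7% to 62.1% of the LMNA TPM in 9 libraries and under 5% in the other 11, and on day 0 it took 1.64% in library A and 54.3% in library B. NM_005572, the lamin C transcript, correspondingly took 62.8% and 5.44% on day 0. On day 12, where both libraries were of the same kind, NM_170707 (lamin A) took 74.6% and 60.8% and NM_005572 20.5% and 33.0%.

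The membrane partners of the lamina moved in opposite directions on the TMM scale on day 12. LBR, the lamin B receptor, which ties heterochromatin to the inner membrane and is also a sterol reductase, had 191 and 188 TPM on day 0, 206 and 225 on day 8, and 22.2 and 10.1 on day 12. It was the only gene of the 36 whose day 8 libraries both lay above day 0 in TPM. Its log2 fold change was 0.79 (SE 0.20, adjusted p = 0.0088) on day 8 against day 0, although 0.19 (adjusted p = 0.53) in limma on log2(TPM + 1) and 0.74 (adjusted p = 0.058) without library A of days 7 and 8. On day 12 it had fallen by 2.36 on the log2 scale against day 8 (SE 0.21, adjusted p = 6e-07). EMD, which encodes emerin, a LEM-domain protein that binds lamin A and chromatin, had 116 and 125 TPM on day 0, 85.4 and 102 on day 8, and 73.4 and 66.6 on day 12. At 58.2% it kept the largest share of its day 0 TPM after XPO7. Its TMM-scaled level was 62.5 and 63.9 CPM on day 0, 75.3 and 74.3 on day 8, and 141 and 170 on day 12, a log2 fold change of 1.30 (SE 0.11, adjusted p = 2.6e-07) on day 12 against day 0 that was -0.77 (adjusted p = 8.2e-05) in limma on log2(TPM + 1). The ratio of LBR to LMNB1 in TPM was 0.838 and 0.981 on day 0, 3.27 and 1.92 on day 8, and 30.5 and 28.4 on day 12, and that of EMD to LMNB1 went from 0.509 and 0.653 on day 0 to 101 and 187 on day 12.

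**Figure D3:**
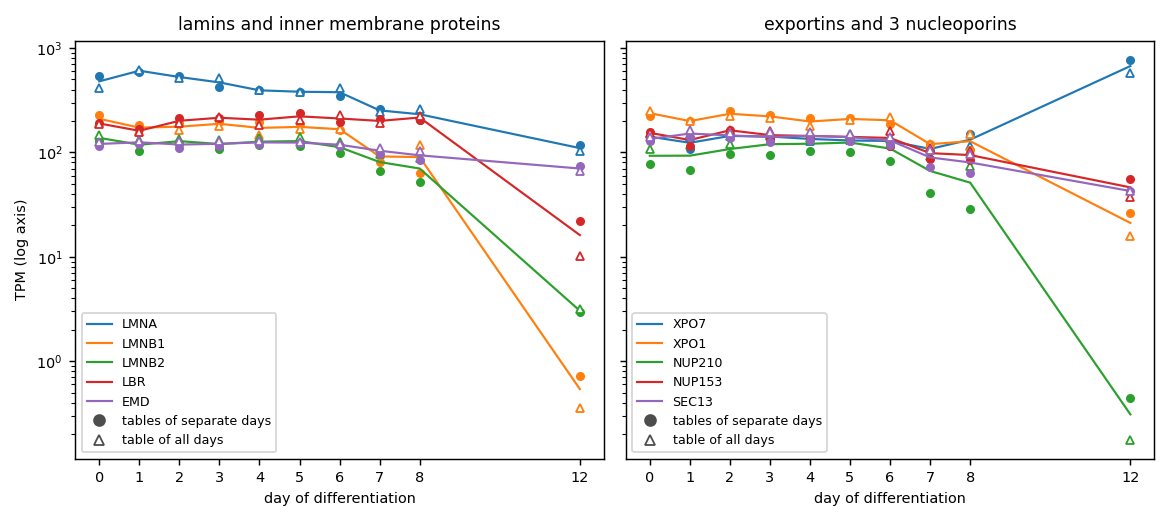
TPM (log axis) of lamins and inner membrane proteins (left) and of both exportins and 3 nucleoporins (right) by day. Circles are library A, triangles library B, and lines the mean of both. LMNB1 and NUP210 fall under 1 TPM on day 12, LMNA stays above 100 TPM, and XPO7 is the only gene shown that rises.

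The exportins went opposite ways. XPO1, the general export receptor for proteins with leucine-rich signals, had 224 and 251 TPM on day 0, 106 and 149 on day 8, and 26.5 and 15.7 on day 12. All later libraries from day 7 on lay below all earlier ones, and the log2 fold change on day 12 against day 0 was -1.50 (SE 0.15, adjusted p = 9.3e-07). XPO7, an export receptor of broad cargo known for its induction in erythroid cells, had 133 and 150 TPM on day 0 and ranged from 104 to 149 TPM over the 16 libraries of days 1 to 8. On day 12 it had 771 and 571 TPM, from 169766 and 150542 counts. The day 12 libraries thus lay above all others, at 474% of the day 0 mean. On the TMM scale XPO7 was 19.5-fold higher on day 12 than on day 0 (log2 fold change 4.28, SE 0.19, adjusted p = 6.8e-10), and the increase was called under each of the 16 alternatives, with log2 fold changes from 2.22 in TPM to 4.51. A smaller increase was called on day 8 against day 0 on the TMM scale, at 0.53 (SE 0.17, adjusted p = 0.025). There the log2 difference was 0.86 between the A libraries and 0.13 between the B libraries. It was 0.20 without library A of days 7 and 8. In TPM no increase was seen, with 149 and 115 on day 8 and -0.10 in limma on log2(TPM + 1). The ratio of XPO7 to XPO1 in TPM was 0.596 in both libraries of day 0, 1.40 and 0.773 on day 8, and 29.1 and 36.3 on day 12. Summed over the 36 genes, the level was 3639 and 3899 TPM on day 0 and 1328 and 1013 on day 12, and without XPO7 it was 3506 and 3749 on day 0 and 557 and 442 on day 12.

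Most of the increase of XPO7 was assigned to transcripts other than the one that predominated earlier. NM_015024 took 78.4% to 94.5% of the TPM of the gene in the libraries of days 0 to 8 and 22.1% and 20.8% on day 12. In TPM, NM_015024 had 118 and 120 on day 0, 127 and 91.2 on day 8, and 170 and 119 on day 12. The other 3 listed transcripts summed to 15.1 and 29.3 TPM on day 0, 22.6 and 24.3 on day 8, and 601 and 452 on day 12. Of these, NR_156173, listed as non-coding, took 36.4% and 34.5% of the gene on day 12, NM_001100161 29.0% in both libraries and NM_001362802 12.5% and 15.7%. Both libraries of day 12 gave the same order. All 4 transcripts lie within chr8:21919662-22006585 on hg38, with lengths of 4804 to 4981 bases. The division of shared reads among them is an estimate of StringTie.

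**Figure D4:**
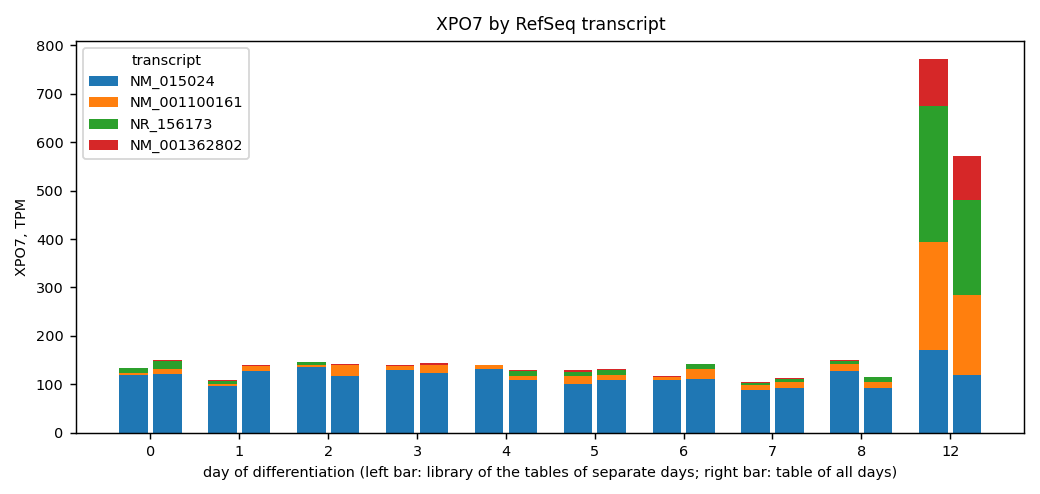
XPO7 in TPM by RefSeq transcript (stacked bars) in each library, with library A on the left and library B on the right of each day. The bars stay between 104 and 150 TPM up to day 8 and are mostly NM_015024, and the 771 and 571 TPM of day 12 are mostly the other 3 transcripts.

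Other genes of nuclear transport and of the envelope, 64 in 7 lists, of which 63 were tested, were also mostly lower on day 12. On day 4 against day 0, 2 were called higher (SYNE3 and SUN2) and 0 lower, beside 2.93% and 2.35% of all genes. On day 8 against day 0, 4 were higher and 15 lower, that is 6.35% and 23.8% of those tested, beside 17.7% and 19.4% of all genes. By day 12, 12 were higher than on day 0 and 35 lower, that is 19% and 55.6%, beside 29.7% and 38.5% of all genes, with a median log2 fold change of -0.84 against -0.29 for all genes. The counts of single lists below are to be read against the same shares. Of 17 import receptors, 3 (KPNA1, KPNA4 and KPNA6) were called higher on day 12 against day 0 and 11 lower. KPNA2, an importin alpha, went from 372 and 411 TPM on day 0 to 16.0 and 14.0 on day 12 (log2 fold change -2.66, SE 0.13, adjusted p = 1.3e-09). Of 5 other exportins, XPOT, which carries tRNA, was called higher and CSE1L, which recycles importin alpha, XPO4 and XPO5 lower. CSE1L fell from 181 and 212 to 5.70 and 3.90 TPM, with a log2 fold change of -3.33 (SE 0.20, adjusted p = 8.4e-09). Of 6 genes of the Ran cycle, 3 were called lower (RAN, RANBP1 and the exchange factor RCC1) and 0 higher. Of 14 mRNA export genes, 9 were called lower, among them THOC3 of the THO complex, and NXF1, the main mRNA export receptor, was called higher.

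Of the 13 inner membrane and LINC complex genes, 6 were called higher on day 12 against day 0 (BANF1, LEMD2, SYNE3, TMEM43, TOR1AIP1 and TOR1AIP2) and 4 lower (LEMD3, SUN1, SYNE1 and TMPO), beside 29.7% and 38.5% of all genes, at a median log2 fold change of 0.45. Whether this list differs from the others was not tested. TMPO, which encodes the lamina-associated polypeptide LAP2, resembled LBR in its course, with 266 and 250 TPM on day 0, 262 and 321 on day 8, and 3.76 and 2.21 on day 12. Its log2 fold change was 0.74 (SE 0.18, adjusted p = 0.0068) on day 8 against day 0 and -5.21 (SE 0.22, adjusted p = 4.6e-10) on day 12 against day 8. Of 5 lamin processing genes, RCE1, the protease that trims farnesylated proteins, was called higher on day 12 against day 0, from 17.2 and 17.0 to 20.6 and 22.4 TPM (log2 fold change 2.40, SE 0.20, adjusted p = 1.9e-07), and FNTB, ICMT and ZMPSTE24, which cuts prelamin A, were called lower. Of 3 other nucleoporins tested, AHCTF1 (ELYS) and TMEM33 were called lower and POM121C was not called.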

How the data were processed

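RNA-seq libraries of HUDEP-2 cells were analysed from 10 days, 2 libraries a day. The authors used Trimmomatic 0.38 for trimming, HISAT2 2.1.0 for alignment to hg38 and StringTie 2.1.3b on RefSeq transcripts (versions from the submitters' processing notes). The deposited tables of 170322 transcripts hold read counts without normalization, which were left as the authors gave them, FPKM, and TPM scaled by the authors for length and library total. Of the value columns, 40 were read and 23 were not used here (all FPKM, and day 0 values of the day 12 table, a set beyond the 2 day 0 samples). Replicate numbers are not in the column names.

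Counts and TPM were summed by gene symbol to 46425 genes. Counts of all 20 libraries were fitted with edgeR 4.0.16 (R 4.3.3; filterByExpr, TMM, glmQLFit, glmQLFTest), with a coefficient for each day, a test that replaced the study's exact test. P-values were adjusted by Benjamini-Hochberg over 16784 genes, with a threshold of 0.05. SE is the absolute log2 fold change over the square root of F. Of the genes with at least 20 summed counts, 65.3% to 78.0% differed between the libraries of a day beyond sampling noise. The libraries of a day were therefore kept apart, which does not show that they are separate cultures. A count of 0 allows up to 0.0426 to 0.0575 CPM (3 counts), for counting error only. The genes and lists were chosen with earlier results of these data known, and all 36 are named or counted. Alternatives were edgeR's exact test, DESeq2 1.42.0, and limma 3.58.1 on log2(TPM + 1) and log2(TPM + 0.1), for genes with a mean of at least 1 TPM. Further alternatives were upper-quartile scaling, TMM without globin and ribosomal RNA genes, and other filters. The rest were curated transcripts (NM_ and NR_ accessions) only, a block for library A or B, fewer libraries, and each library left out.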

Additional observations from a re-analysis of the deposited data

How the results depend on the processing

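No paired analysis was possible because replicate numbers stand in the labels and not in the column names, and the planned block by replicate was not run. A block for library A or B, below called the block for the table of deposit, was fitted and is given below. It takes the tables of separate days together, so differences among those tables were not adjusted for, and it does not follow a stated replicate. The calls of day 12 were the most stable: 21 of the 33 on day 12 against day 0 (XPO7 higher and 20 lower) and 20 of the 30 against day 8 (XPO7 higher and 19 lower) held in the same direction under all 16 alternatives, whereas none of the 9 of day 8 or the 1 of day 4 did. Recomputing the called fold changes under all settings but leave-one-out gave 792 values with the same direction and call, 62 that lost the call and 22 that changed sign, and leaving out a library at a time gave 243, 49 and 0.

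Genes called higher on day 4 against day 0 (1) were 0 with curated transcripts, with only the days compared and in both limma fits, and 0 to 1 with a library left out. Genes higher on day 8 against day 0 (3) were 1 without the libraries rich in ribosomal RNA, 1 with only the days compared, 0 in both limma fits, and 1 to 2 with a library left out. Genes lower in the same comparison (6) were 11 with a block for the table of deposit, 1 without the libraries rich in ribosomal RNA, 1 with only the days compared, 25 and 24 in limma with pseudocounts of 1 and 0.1, and 1 to 8 with a library left out. Genes higher on day 12 against day 8 (6) were 3 with only the days compared, 1 in both limma fits, and 4 to 6 with a library left out. Genes higher on day 12 against day 0 (5) were 3 with no filter, 3 with only the days compared, 1 in both limma fits, and 3 to 4 with a library left out, the 3 being without library A of day 0. Genes lower on day 12 were 22 to 26 against day 8 and 23 to 26 against day 0 with a library left out. Calls over all genes shifted as well. With only the days compared, 171 of 14824 genes were higher on day 4, and 1699 higher and 2027 lower of 14829 on day 8. On day 12, 3569 of 14504 were then higher against day 8 and 4838 of 15047 against day 0. With no filter, 4650 of 26893 were higher on day 12 against day 0. In limma with a pseudocount of 0.1, 948 of 11953 were higher and 5719 lower on day 8. Fits with libraries left out have no such counts here. The cause of these shifts was not tested, and fewer libraries remained where some were dropped.

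Signs changed in limma on TPM, whose median over all genes was itself -1.87 on day 12 against day 0 with a pseudocount of 1. With pseudocounts of 1 and 0.1, log2 differences on day 12 against day 8 were -0.86 and -0.88 for SEC13, -0.63 and -0.65 for NUP88, -1.03 and -1.05 for NUP153, -1.06 and -1.07 for LMNA, and -0.41 and -0.42 for EMD. On day 12 against day 0 they were -1.63 and -1.65 for SEC13, -1.64 and -1.69 for NUP58, -1.21 and -1.24 for NUP88, and -0.77 and -0.78 for EMD, and on day 8 against day 0 -0.10 and -0.11 for XPO7. Curated transcripts alone turned POM121 on day 12 against day 0 to 0.18 and LMNA on day 8 against day 0 to 0.0108, and ended 7 further calls of day 12 against day 0 (NUP43, SEH1L, SEC13, NUP58, NUP214, RAE1 and NUP50).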
